A study of Mus musculus with 6 samples.

Results

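Of 41 genes that build the primary cilium or carry hedgehog signals within it, 14 had a Gli3 peak within 50 kb of their transcription start site (TSS) in the embryonic mouse cortex (34.1%), beside 23.4% of protein-coding genes and 30.2% of those with a CpG-rich promoter. Within 2 kb 5 had a peak (12.2%), beside 6.88% and 11.8%. At both distances the cilium share was nearer to that of the genes with CpG-rich promoters, which 33 of the 41 had themselves. Of the 5 genes within 2 kb, 3 had one, and the part of promoter type was not tested. The 5 were *Evc*, *Evc2*, *Kif7*, *Rab34* and *Bbs2*. The 41 genes were listed by name for intraflagellar transport (IFT), the BBSome, the transition zone and ciliary hedgehog signalling, with no measured value used, and were compared with all 21951 protein-coding genes of the GENCODE M21 annotation of mm10. Earlier results of these data were known when these genes and the later comparison lists were chosen. A gene was counted when the midpoint of a peak lay within the stated distance of the TSS of its gene record.

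The peaks come from chromatin immunoprecipitation followed by sequencing (ChIP-seq), which recovers the DNA fragments bound by a protein from fixed tissue. Cerebral cortices of wild-type mice at embryonic day 15 (E15) were fixed with formaldehyde and precipitated with a Gli3 antibody, giving 3 ChIP libraries, and 3 libraries of input DNA served as control. All 6 libraries share this genotype, tissue and stage, and none carries a mutation or a treatment. The replicates were joined by the authors into 1 list of 4114 peaks with positions but no height, so no error between embryos can be given, the read depth is unknown here, and neither the strength of a peak nor the expression of any gene was measured. The list of positions also does not allow the tissue label to be checked against marker genes.

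The primary cilium is a single antenna-like extension of the cell surface that is built on the mother centriole. Cargo is carried along it by IFT trains, moved outward by kinesin-II and back by cytoplasmic dynein-2, the BBSome removes membrane proteins, and the transition zone at the base acts as a gate. In vertebrates the hedgehog signal passes through the cilium: Smoothened accumulates in its membrane, and the Gli factors, Gli3 among them, travel to its tip before they act in the nucleus as activators or are processed to repressors.

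The DNA around the peaks is shown first, because the later results refer to it. The stretch of 200 bases before the TSS is given for the 4 genes whose TSS lay inside a peak nearest to its midpoint. The CG dinucleotides are in capitals, since CpG content is one of the features compared among promoters. Each stretch is written 5′ to 3′ on the strand of the gene and comes from GRCm38, the assembly of mm10, at chr5:37336895-37337094 (minus) for *Evc*, chr5:37338299-37338498 (plus) for *Evc2*, chr7:79715721-79715920 (minus) for *Kif7* and chr8:94098929-94099128 (minus) for *Bbs2*. None of the 4 overlaps an annotated exon. They held 10, 13, 21 and 4 CG dinucleotides.
Evc: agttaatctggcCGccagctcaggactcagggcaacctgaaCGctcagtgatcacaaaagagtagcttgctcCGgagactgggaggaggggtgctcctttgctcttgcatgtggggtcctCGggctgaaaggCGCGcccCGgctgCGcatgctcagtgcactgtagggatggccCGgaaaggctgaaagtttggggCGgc
Evc2: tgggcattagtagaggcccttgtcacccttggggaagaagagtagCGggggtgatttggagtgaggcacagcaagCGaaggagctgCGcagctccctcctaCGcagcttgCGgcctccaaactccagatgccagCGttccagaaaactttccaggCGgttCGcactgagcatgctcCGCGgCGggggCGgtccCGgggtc
Kif7: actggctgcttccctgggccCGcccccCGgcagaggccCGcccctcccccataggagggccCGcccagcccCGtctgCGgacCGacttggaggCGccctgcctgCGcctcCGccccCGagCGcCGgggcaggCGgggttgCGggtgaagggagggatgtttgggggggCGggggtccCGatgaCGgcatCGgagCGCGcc
Bbs2: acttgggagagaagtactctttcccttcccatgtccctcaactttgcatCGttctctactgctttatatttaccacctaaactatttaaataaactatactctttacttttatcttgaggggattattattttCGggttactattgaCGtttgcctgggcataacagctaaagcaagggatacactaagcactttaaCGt

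The exact GLI core GACCACCCA, searched on both strands, occurred once in each of 4 peaks near a cilium gene. The cores are in capitals with their flanks in lower case, on the strand that reads GACCACCCA, which was minus in all 4. The flanks are 20 bases, or 10 where the longer window would reach an exon. They lie at chr11:78189486-78189494 in the *Rab34* peak, chr9:7176905-7176913 in the *Dync2h1* peak, chr7:25688542-25688550 in a peak near *B9d2*, and chr3:69044221-69044229 in the peak near *Ift80*.
Rab34: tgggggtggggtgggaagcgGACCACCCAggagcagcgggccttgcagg
Dync2h1: ttctttttacGACCACCCAgaattacttc
B9d2: tctggaaagaGACCACCCAgcgagccctg
Ift80: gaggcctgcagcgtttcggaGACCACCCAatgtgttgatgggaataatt

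Within 50 kb, 14 of 41 cilium genes had a peak, with a 95% Wilson interval of 21.6% to 49.5%, which here and below covers counting error over genes only. Within 2 kb, 5 of 41 had a peak, with an interval of 5.32% to 25.5%. Both intervals contain the share of all protein-coding genes, 23.4% and 6.88%. Cilium genes more often had CpG-rich promoters, defined as a CpG observed/expected ratio of at least 0.6 and a GC content of at least 50% from 250 bases before to 50 after the TSS: 33 of 41 or 80.5%, beside 41.3% of protein-coding genes. Among the 9059 protein-coding genes with such a promoter, 30.2% had a peak within 50 kb and 11.8% within 2 kb, and the intervals contain these shares too. The median distance to the nearest peak was 132 kb for the cilium genes, 115 kb for coding genes with CpG-rich promoters and 177 kb for all coding genes.

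The comparison was repeated at other distances. At 1 kb 3 cilium genes had a peak (7.32%), between 5.68% of all coding genes and 10% of those with CpG-rich promoters. At 10 kb the number was 7 (17.1%, beside 9.69% and 14.5%), at 100 kb 20 (48.8%, beside 36.5% and 45.8%), and at 500 kb 37 (90.2%, beside 75.5% and 85.6%). The plot of shares against distance shows the cilium genes above the whole set of coding genes throughout. They were nearer to that set at 1 kb, and nearer to the CpG-rich genes from 2 kb on.

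**Figure D1:**
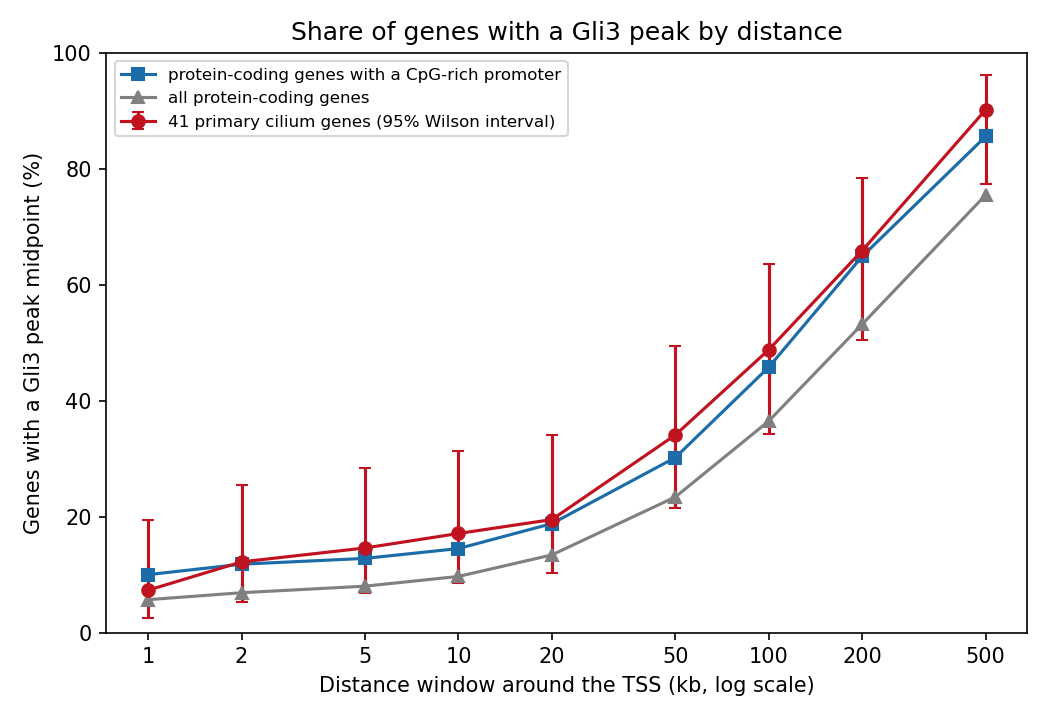
Percent of genes with a Gli3 peak midpoint within a distance of the TSS (x axis, kb, log scale) for the 41 cilium genes (circles, bars are 95% Wilson intervals), the protein-coding genes with a CpG-rich promoter (squares) and all protein-coding genes (triangles). At 2 kb the values were 12.2%, 11.8% and 6.88%, and at 50 kb 34.1%, 30.2% and 23.4%.

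The counts are given by role beside the same shares of all coding genes, 23.4% within 50 kb and 6.88% within 2 kb. Of the 9 genes of the ciliary membrane and hedgehog signalling, 5 had a peak within 50 kb and 4 within 2 kb, with a median distance of 28.7 kb. Of the other 32 genes, 9 had a peak within 50 kb and 1 within 2 kb. The 13 IFT genes had 2 within 50 kb and 0 within 2 kb, and their medians were 127 kb for IFT-B, which carries cargo outward, and 177 kb for IFT-A, which works in the return. The 10 transition zone genes had 3 and 0 (median 163 kb), the 6 BBSome genes 3 and 1 (134 kb), and the 3 motor genes 1 and 0 (63.0 kb). The groups hold 3 to 10 genes each, and no difference between them was tested.

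**Figure D2:**
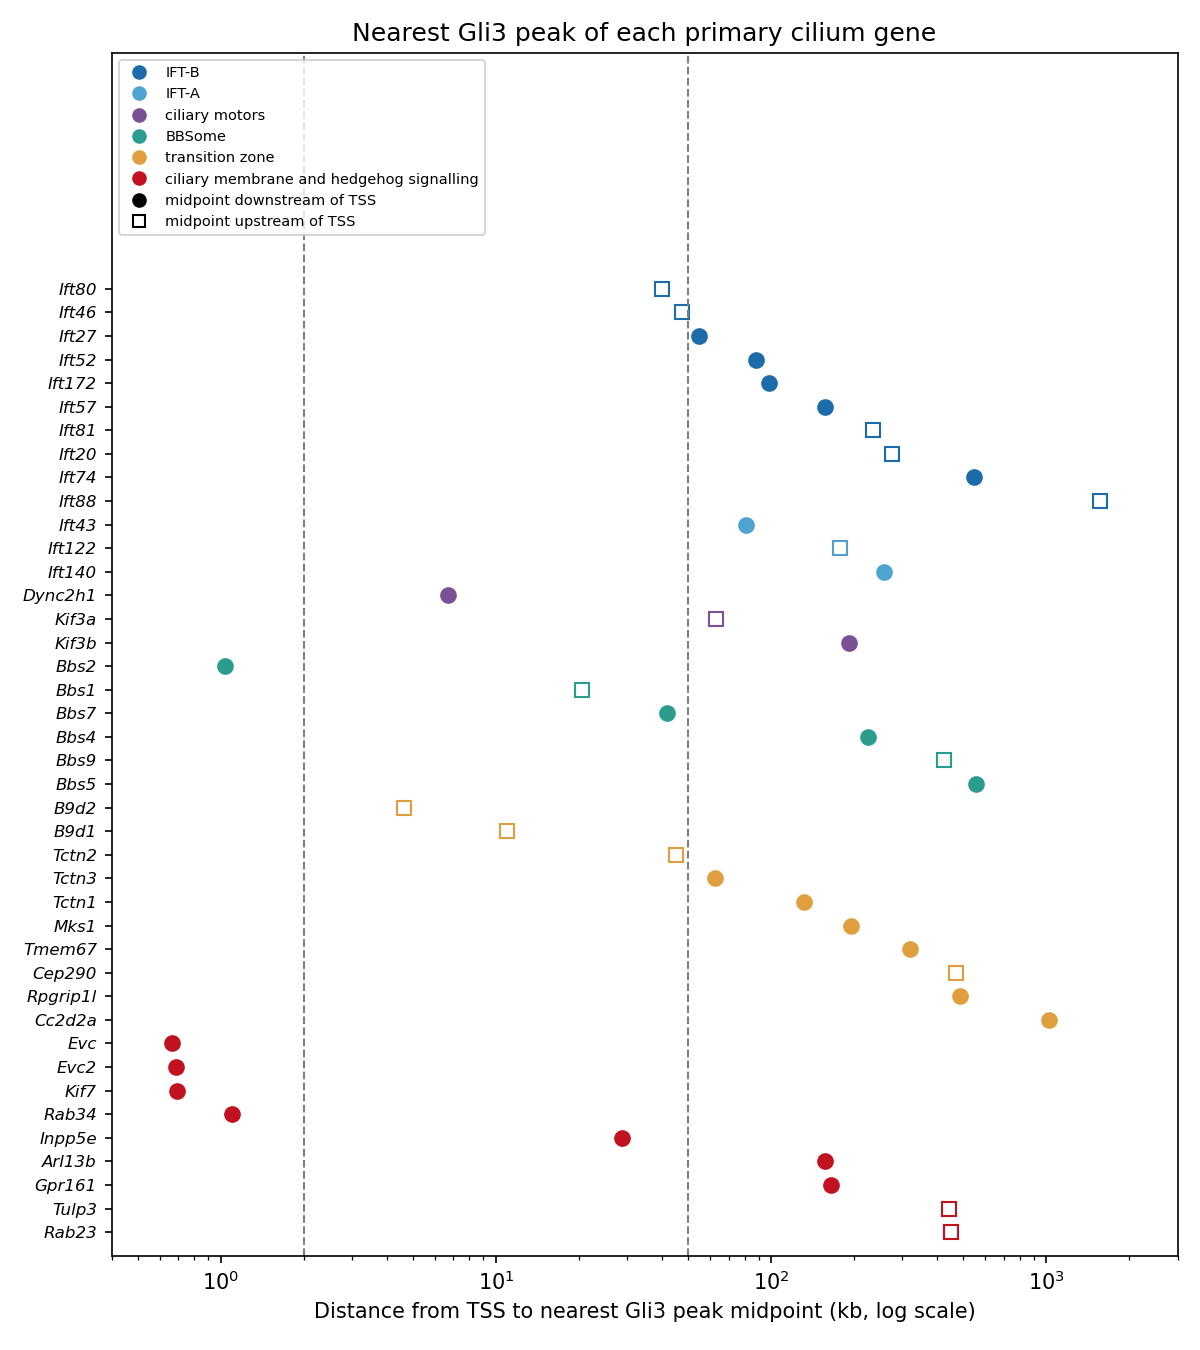
Distance from the TSS of each of the 41 cilium genes to the midpoint of its nearest Gli3 peak (x axis, kb, log scale), by role, with filled circles for midpoints downstream of the TSS and open squares for upstream; the dashed lines are at 2 and 50 kb. Of the 5 genes left of 2 kb, 4 belong to the ciliary membrane and hedgehog group.

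*Evc* and *Evc2* encode transmembrane partners near the base of the cilium that pass the signal on from Smoothened. They are transcribed away from each other from TSSs 1605 bp apart, and each TSS lay in a peak of its own. The *Evc* peak, chr5:37335263-37337195, was 1933 bp wide with its midpoint 665 bp into the gene, in an intron. The *Evc2* peak, chr5:37338131-37340244, was 2114 bp wide with its midpoint 688 bp into the gene, also in an intron. A gap of 935 bp separated the peaks, so the shared DNA between the TSSs was not covered as a whole: the *Evc* peak reached 301 bp and the *Evc2* peak 368 bp upstream of its TSS. Neither peak held an exact core. The midpoint of the *Evc2* peak was 2293 bp from the TSS of *Evc* and that of the *Evc* peak 2270 bp from the TSS of *Evc2*, so each gene had both peaks within 50 kb and 1 within 2 kb.

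*Kif7* encodes the kinesin that organises the tip of the cilium and takes part in the control of the Gli proteins. Its peak, chr7:79714115-79715942, was 1828 bp wide, began 222 bp upstream of the TSS and had its midpoint 692 bp downstream in an intron. It held no exact core and 1 match with at most 1 mismatch. The promoter window of *Kif7* was the richest in GC among the 41, at 73%.

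*Rab34* encodes a small GTPase needed for the early steps of cilium formation. Its peak, chr11:78188254-78190807, was 2554 bp wide, reached 176 bp upstream of the TSS and had its midpoint 1100 bp downstream in an intron. It held the exact core shown above, centred 40 bp from the midpoint, and was the only one of the 5 peaks within 2 kb to hold one. *Rab34* also has a transcript that starts 58 bp from the midpoint. A second peak, chr11:78163016-78168418, lay 22.7 kb upstream and covered the TSS of *Traf4*.

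*Bbs2* encodes a subunit of the BBSome. Its peak, chr8:94096851-94098943, was 2093 bp wide, with its midpoint 1031 bp downstream in an intron, and reached 15 bp beyond the TSS of the gene record. The nearest TSS of *Bbs2* in RefSeq lay closer to the midpoint, at 612 bp. The promoter window at the M21 TSS was the poorest in GC among the 41, at 39.7%, as the *Bbs2* stretch above shows. The peak held neither an exact core nor a match with 1 mismatch.

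The 5 peaks shared their placement. In each the TSS lay inside the peak, which was the case for 89.1% of the protein-coding genes with a peak within 2 kb. In each the midpoint lay downstream of the TSS, beside 62.8% of those coding genes. None of the 5 covered the TSS of another gene record of M21. The closest cilium gene beyond 2 kb was *B9d2*, at 4634 bp.

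*Dync2h1*, which encodes the heavy chain of cytoplasmic dynein-2, was the only further gene that was the nearest coding TSS of its peak. The peak, chr9:7176251-7179220, was 2970 bp wide with its midpoint 6711 bp downstream of the M21 TSS in an intron. A transcript of the gene in M21 starts 689 bp from the midpoint, and the nearest RefSeq TSS is 677 bp from it, so that with either of those starts *Dync2h1* is the 6th cilium gene within 2 kb. The exact core of this peak lay 826 bp from the midpoint. At 43.3% it had the lowest GC content of the peaks near a cilium gene.

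**Figure D3:**
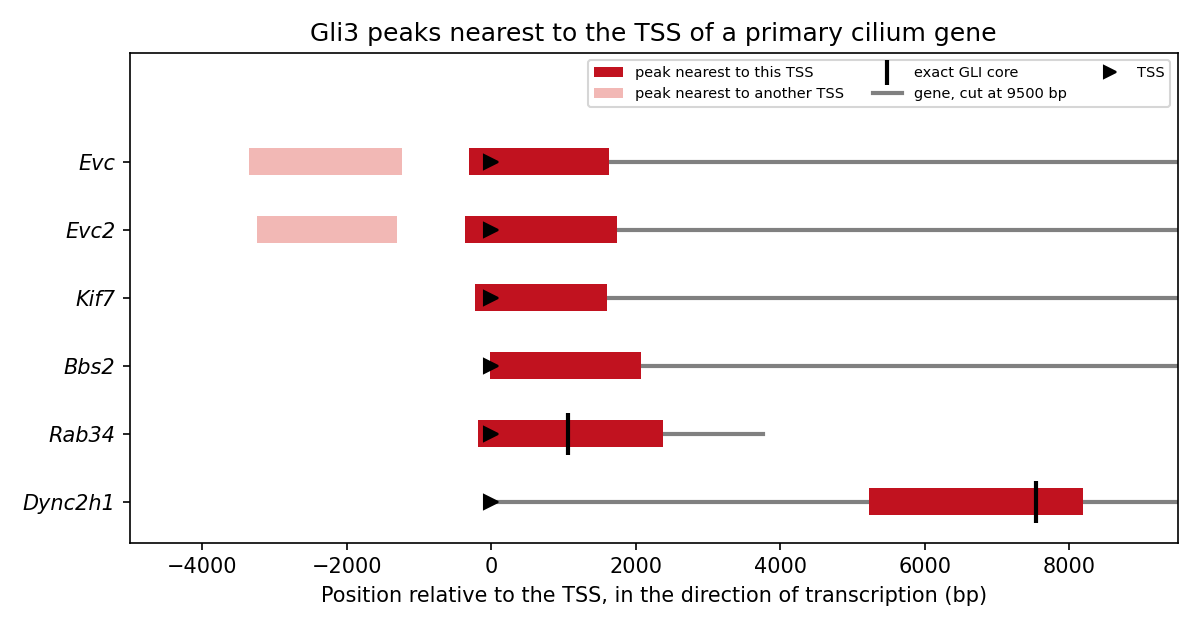
Gli3 peaks (boxes) along the 6 cilium genes that were the nearest coding TSS of a peak, in bp from the TSS in the direction of transcription, with the gene as a grey line, the TSS as an arrowhead and exact GLI cores as black ticks; pale boxes are the peaks nearest to the other gene of the *Evc* and *Evc2* pair. The first 5 peaks cover the TSS and extend further into the gene than upstream, and the *Dync2h1* peak starts inside the gene.

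At the other 8 genes with a peak within 50 kb, the peak was nearest to the TSS of another gene. The 6 genes above made up 42.9% of the 14, beside 46% of the protein-coding genes with a peak within 50 kb. *B9d2*, a B9 domain protein of the transition zone, had a peak 4634 bp upstream, chr7:25674922-25677371, that covered the TSS of *Tmem91*, and one 6446 bp downstream, chr7:25684511-25689941, that covered the TSS of *Tgfb1*, which encodes a growth factor. The latter was 5431 bp wide, the widest near a cilium gene, and its core lay 1320 bp from its midpoint. *B9d1*, the partner of *B9d2*, had peaks 10.9 kb upstream at the TSS of *Mapk7*, chr11:61493501-61494913, and 20.6 kb upstream at the TSS of *Mfap4*, chr11:61482943-61486165.

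The BBSome subunit *Bbs1* had a peak 20.6 kb upstream, chr19:4925650-4928788, at the TSS of *Dpp3*. *Bbs7*, another subunit, had one 41.9 kb downstream, chr3:36570558-36572577, at the TSS of *Ccna2*, the gene of cyclin A2, and a transcript of *Bbs7* starts 5.72 kb from that midpoint. *Inpp5e*, the phosphatase that sets the phosphoinositides of the ciliary membrane, had one 28.7 kb away, chr2:26379782-26381161, at the TSS of *Snapc4*. This was the narrowest peak near a cilium gene, at 1380 bp.

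The IFT-B gene *Ift80* had a peak 40.0 kb upstream, chr3:69043718-69045488, that covered the TSS of *Trim59*, with a core 378 bp from the midpoint. *Tctn2*, of the tectonic proteins of the transition zone, had one 45.2 kb upstream at the TSS of *Ddx55*, chr5:124551959-124555156. The peak nearest to the limit of 50 kb was that of the IFT-B gene *Ift46*, 47.4 kb upstream within *Phldb1*, chr9:44718287-44722633, which covered no coding TSS. At the RefSeq TSS of *Ift46* the distance is 52.5 kb and the gene falls outside the limit.

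These 19 pairs of gene and peak comprised 17 distinct peaks, of which 15 or 88.2% covered a coding TSS, beside 43.8% of all peaks within 50 kb of a coding TSS. The 17 peaks were 1380 to 5431 bp wide with a median of 2450 bp, beside 1989 bp for all peaks. Their median GC content was 54.5% and that of all peaks 51.4%, and the soft-masked share of repeats was 12.3% in the former and 12.4% in the latter. The exact core was in 4 of 17 or 23.5% (Wilson interval 9.56% to 47.3%), beside 12.2% of all 4099 peaks on placed chromosomes. With at most 1 mismatch it was in 14 of 17, beside 64.7% of all peaks. Cilium genes with a peak within 50 kb had a median of 2.5 other coding TSSs within 50 kb, and those without had 1. The part of this neighbourhood in the count of 14 was not tested.

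The remaining 27 cilium genes had no peak within 50 kb. The nearest of them were *Ift27* at 54.5 kb, *Tctn3* at 62.4 kb and *Kif3a*, a motor subunit of kinesin-II, at 63.0 kb. With the nearest TSS of any transcript, *Ift27* (47.3 kb) and *Ift43* (23.4 kb) fell within 50 kb. The farthest were the IFT-B gene *Ift88* at 1571 kb, the transition zone gene *Cc2d2a* at 1024 kb and the BBSome gene *Bbs5* at 556 kb. The others were *Ift20*, *Ift52*, *Ift57*, *Ift74*, *Ift81* and *Ift172* of IFT-B, *Ift122* and *Ift140* of IFT-A, the kinesin-II gene *Kif3b*, *Bbs4* and *Bbs9* of the BBSome, and *Cep290*, *Rpgrip1l*, *Tmem67*, *Tctn1* and *Mks1* of the transition zone. Of the ciliary membrane and hedgehog group they were *Arl13b*, a GTPase of the ciliary membrane, and 3 regulators of the hedgehog signal, *Tulp3*, *Gpr161* and *Rab23*.

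Many ciliary promoters carry an X-box, the binding motif of the RFX factors. It was searched on both strands as GTTNCC followed by GGNAAC with 0 to 3 bases between them. In the promoter windows it occurred in 5 of 41 cilium genes (12.2%), *Bbs7*, *Ift57*, *Mks1*, *Tctn1* and *Tctn3*, beside 0.725% of protein-coding genes. They are shown with the motif in capitals. None of them belongs to a gene with a peak within 2 kb, and *Bbs7* has one within 50 kb. With 5 of 41 genes in each group, the lack of overlap within 2 kb says little. The first bases lie 33, 24 and 138 bp upstream of the TSS in *Bbs7*, *Mks1* and *Tctn3*, and 1 and 36 bp downstream in *Ift57* and *Tctn1*, at chr3:36613497-36613510 (minus), chr11:87853191-87853204 (plus), chr19:40612359-40612371 (minus), chr16:49699234-49699246 (plus) and chr5:122264411-122264424 (minus).
Bbs7: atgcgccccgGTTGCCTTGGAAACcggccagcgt
Mks1: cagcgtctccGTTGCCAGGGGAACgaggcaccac
Tctn3: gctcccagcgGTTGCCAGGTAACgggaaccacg
Ift57: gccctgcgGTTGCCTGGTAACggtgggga
Tctn1: ctgtgactGTTGCCCGGGCAACagacgggc

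With looser letters, GTNNCC followed by NGNAAC, the X-box was in 10 of 41 cilium promoters (24.4%), beside 5.28% of coding promoters, the further 5 being *Bbs1*, *Bbs4*, *B9d2*, *Ift74* and *Tctn2*. Neither form was found in the windows of *Evc*, *Evc2*, *Kif7*, *Rab34* or *Bbs2*, which are too few to set against these shares. The GLI core was in 0 of 41 cilium promoter windows and in 0.219% of those of coding genes. Of the 5 genes with a peak within 2 kb, 3 (*Evc*, *Evc2* and *Kif7*) had a CpG-rich promoter, beside 30 of the other 36. For *Rab34* and *Bbs2* the nearest RefSeq TSS lay closer to the peak midpoint than the M21 TSS (782 beside 1100 bp, and 612 beside 1031 bp). The composition at those RefSeq starts was not measured. The plot of promoter composition shows *Kif7* and *Bbs2* at opposite ends of the GC range.

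**Figure D4:**
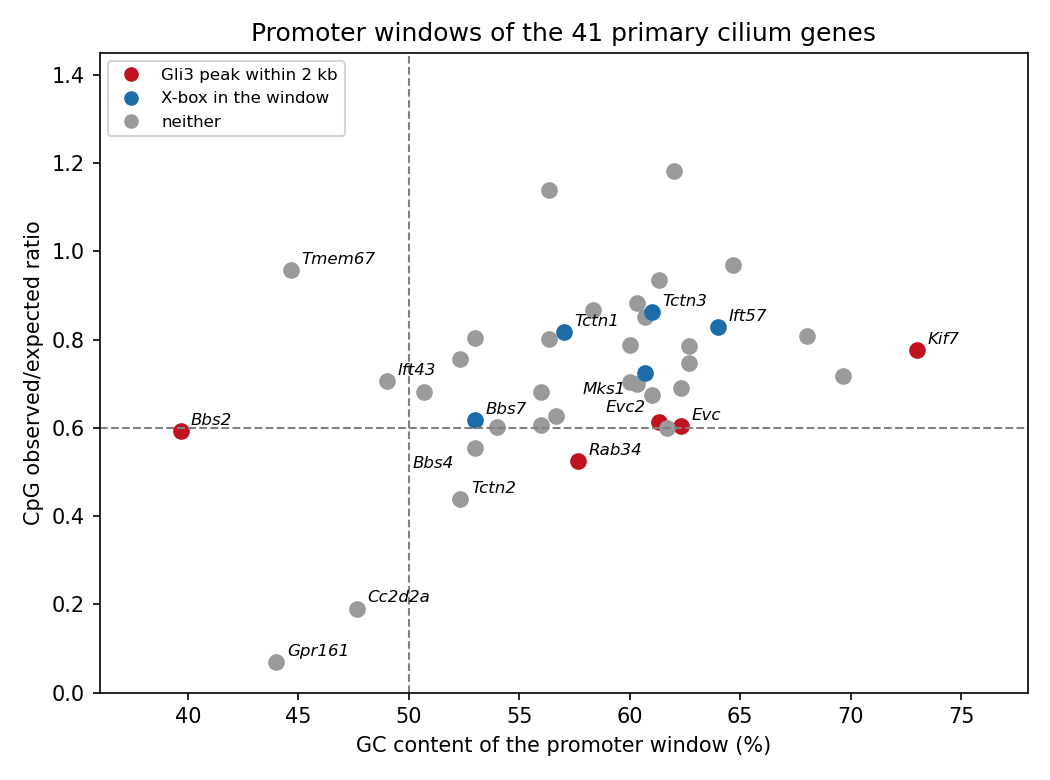
GC content (x axis, %) and CpG observed/expected ratio (y axis) of the promoter windows of the 41 cilium genes, with genes that have a Gli3 peak within 2 kb in red, genes with an X-box in blue and the others in grey; dashed lines mark 50% and 0.6, and genes outside the CpG-rich quadrant are named. No gene is both red and blue, with only 5 of the 41 in each of these groups, and the red points span 39.7% to 73% GC.

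A list of 60 other cilium genes gave like shares: 21 or 35% (24.2% to 47.6%) had a peak within 50 kb and 8 or 13.3% (6.91% to 24.2%) within 2 kb. Both intervals lie just above the shares of all coding genes (23.4% and 6.88%). Those of the 41, a shorter list with like shares, contain them. At 2 kb this depends on how distance is defined. The count stayed 8 with any base of the peak inside the window and with the TSS of any transcript. The coding shares were then 7.37% and 8.19%, which lie inside the interval. Both intervals of the 60 genes contain the shares of coding genes with CpG-rich promoters (30.2% and 11.8%). The 8 were *Arl6*, the GTPase that recruits the BBSome (57 bp), *Sept2* of the septin ring at the ciliary base (113 bp), *Ttbk2*, the kinase that starts cilium assembly (155 bp), *Sstr3*, a ciliary somatostatin receptor (216 bp), *Bbs10*, a chaperonin-like protein of BBSome assembly (330 bp), *Cep83* of the distal appendages (331 bp), *Hspb11*, the IFT-B subunit Ift25 (381 bp), and *Dzip1* of the ciliary base (566 bp). None of their peaks held an exact core, beside 12.2% of all peaks on placed chromosomes, and so few peaks say little about this share. Taken with the 41, 35 of 101 cilium genes (34.7%) had a peak within 50 kb and 13 (12.9%) within 2 kb.

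Of 18 genes of the hedgehog pathway itself, 12 or 66.7% (43.7% to 83.7%) had a peak within 50 kb. Peaks within 2 kb were found at *Hhip* (311 bp), *Ptch1* (512 bp) and *Gli1* (1387 bp), which encode a decoy receptor of the ligand, its receptor and a Gli activator. The interval at 50 kb lies above the share of all protein-coding genes (23.4%), as does that of the 60 other cilium genes. The interval of the 41 cilium genes contains this share. That of the hedgehog genes also lies above the share with CpG-rich promoters (30.2%), which the intervals of both cilium lists contain. The difference between these lists was not tested. The peak of *Ptch1* held an exact core, as did that of *Rab34*, while those of *Hhip* and *Gli1* held none. Of all peaks on placed chromosomes 12.2% held one, and these peaks are too few to compare with that share.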

How the data were processed

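Gli3 ChIP-seq was performed on wild-type E15 mouse cortex (3 ChIP and 3 input libraries), which the paper describes as biological replicates. According to the file header, the authors used 85 bases from each end of the fragments, filtered repeats, aligned to mm10 with bowtie2, and retained narrow peaks that passed as the optimal set when replicates were compared by irreproducible discovery rate (IDR). Bowtie2, SAMtools and MACS2 are named in the submitters' processing notes; the settings of peak calling and the IDR threshold are not given in the sources used here. The deposited list gives the start and end of each peak and no score. The text of the paper counts more binding sites than this list holds, and the values here apply to this list only. Of the 4114 peaks, 15 on scaffolds were left out of sequence counts.

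Distances ran from the peak midpoint to the TSS of the GENCODE M21 gene record, and the nearest peak was used. *Tctn2* is not protein-coding in M21 and was kept as a cilium gene. Promoter windows came from GRCm38, and 42 of 42 RefSeq promoter sequences of cilium genes equalled this assembly at their own coordinates. No test was run, since the list holds no value per library: counts are set beside shares of all coding genes or peaks, with 95% Wilson intervals. All 41 genes were named, with every peak within 50 kb, the 3 nearest and 3 farthest genes beyond it, and, of the lists of other cilium genes, regulators and hedgehog genes, those with a peak within 2 kb. One item that this rule covers is not reported here. Each of the X-boxes downstream of a TSS was printed with 8 flanking bases and the others with 10. The genes and lists were chosen with earlier results of these data known. The distance and motif counts were tested on simulated data. Python 3.11.15, numpy 2.4.6, scipy 1.17.1 and matplotlib 3.10.9 were used.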

Additional observations from a re-analysis of the deposited data

How the results depend on the processing

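Of 45 alternative values, 28 stayed within the limits set for a like value and 17 moved. Leaving out a replicate was not run, because the replicates are joined in 1 list. No paired analysis was possible because the list holds no value per library. The count of 14 cilium genes within 50 kb was 6 when a peak counted only for its nearest coding TSS. It was 6 with peaks narrower than the median and 8 at 20 kb (19.5%, beside 13.4% of coding genes). The other alternatives gave 11 to 20. The count of 5 within 2 kb was 3 with peaks at or above the median width, 2 with narrower ones and 3 at 1 kb, and elsewhere 5 or 6. Among coding genes the share within 50 kb was 30.2% with CpG-rich promoters, 26.2% with the TSS of any transcript and 10.8% for nearest TSSs only; within 2 kb these were 11.8%, 8.19% and 6.06%, and 7.37% with any overlap. The exact core was in 4 of 17 peaks, in 14 with 1 mismatch, in 1 with the central 200 bases searched and in 1 of the 5 peaks within 2 kb. For peaks split by width and for the central 200 bases, no share over all genes or peaks is given. The X-box count of 5 was 10 with looser letters (24.4%, beside 5.28% of coding promoters). In a wider window it was 6 (14.6%, beside 1.61%). RefSeq TSSs (13 and 6 genes) and the 40 genes that M21 calls protein-coding (13 and 5) were added after seeing the data. Without peak heights, replicates or depth, weak and strong peaks cannot be told apart, and a gene without a peak may have one below the threshold of the authors.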

Other observations

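Of 14 regulators of ciliary genes, 6 or 42.9% (21.4% to 67.4%) had a peak within 50 kb and 3 or 21.4% (7.57% to 47.6%) within 2 kb. The interval at 50 kb contains the share of all coding genes (23.4%). That at 2 kb lies above their share (6.88%) and contains the share of coding genes with CpG-rich promoters (11.8%). With the TSS of any transcript the count within 2 kb stayed 3, and the coding share of 8.19% lies inside the interval. The CpG content of the promoters of the regulators was not compared. The 3 were *Foxj1*, the forkhead factor of motile ciliogenesis, whose TSS lay 7 bp from the midpoint of a peak 3228 bp wide, *Rfx4* (536 bp), an RFX factor, and *E2f5* (640 bp). None of these 3 peaks held an exact GLI core, beside 12.2% of all peaks on placed chromosomes, and 3 are too few to compare. *Mcidas* (40.4 kb) and *Ccno* (46.5 kb), which act in multiciliated cells, shared 1 peak, and *Rfx5* had one at 20.9 kb. The other RFX genes of the list, *Rfx1*, *Rfx2*, *Rfx3* and *Rfx7*, had their nearest peak at 117, 202, 371 and 234 kb.

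A few values fall outside the comparisons. *Ptch1* and *Rab34* had an exact core in a peak within 2 kb. The hedgehog genes *Boc*, *Smo* and *Cdon* had one in their nearest peak, at 5.87, 16.5 and 43.6 kb. The nearest peaks of *Gli1*, *Hhip*, *Gli2*, *Sufu*, *Hhat*, *Spop* and *Fkbp8*, also within 50 kb, held none. Of all peaks on placed chromosomes 12.2% held an exact core, and the difference was not tested. The nearest peak to the TSS of *Gli3* itself was at 2897 kb, farther than that of any of the 41 cilium genes, of which *Ift88* was the farthest at 1571 kb.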
